A study of Mus musculus with 12 samples.

Results

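The genotype effect after 2 weeks of a high-fat diet (HFD) was described over the hypothalamic genes with a mean normalized count of at least 100 over the 6 HFD-fed mice. This minimum took 12509 of the 16744 genes in the HFD table (74.7%), which held 98.9% of the summed normalized counts. The mean normalized count is the average over the mice of the read count after scaling for library size. The values closest to the minimum were those of Col24a1 and Atp7b, at 99.92 and 99.99, which were left out, and of the long noncoding RNAs E430024P14Rik and Gm42829, at 100.02 and 100.03, which were kept.

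RNA was taken from the hypothalamus of male C57BL/6J mice that were either WT or homozygous for a CRISPR null allele of Gpr75 (Gpr75-/-), 3 mice of each genotype. The mice went onto the HFD at 6 weeks of age and were sampled 2 weeks later. The same 2 genotypes on a chow diet, again 3 mice each, served for comparison. The allele was present in every cell of the body, and the whole hypothalamus was measured, so that fewer cells of a type and less RNA per cell cannot be told apart. The null allele carries an early stop codon, with which the transcript can still be made, so the level of Gpr75 mRNA does not check the genotype. On the HFD the authors' group means of Gpr75 were 19.9 CPM (reads scaled to an equal library total) in WT and 18.4 CPM in Gpr75-/- mice, with a log2 fold change of -0.06 and a standard error (SE) of 0.35. That SE was wide beside the median SE of 0.09 over all 12509 genes, so this fold change is poorly determined. On chow the log2 fold change of Gpr75 was 0.55 (SE 0.12).

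The hypothalamus holds neurons that make peptides driving or restraining feeding, such as proopiomelanocortin, neuropeptide Y and melanin-concentrating hormone. These are made as larger precursors, packed with granins into secretory granules and cut there by prohormone convertases. Around the neurons lie astrocytes, microglia and oligodendrocytes, and the last of these wrap axons in myelin. GPR75 is a G protein-coupled receptor reported to bind the G protein alpha subunit encoded by Gnaq.

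The tables hold 1 fold change and 1 SE per gene and 1 mean per group, and no value of a single mouse was used here. Fold changes are given as log2 of Gpr75-/- over WT, with the SE from the fit over 6 mice. A gene was called at a Benjamini-Hochberg adjusted p under 0.05 from the 2-sided Wald test of the authors' DESeq2 fit, adjusted over 16089 genes. Group means in CPM are the authors' means, without an SD, and were deposited in steps with a median size of 0.042 on the log2 CPM scale, so that 21.5% of the genes have the same printed mean in both genotypes.

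Most genes differed little between the genotypes. The median log2 fold change over the 12509 genes was 0.00, the 10th and 90th percentiles were -0.12 and 0.12, and 51.4% of the genes were higher in Gpr75-/- mice. Of these genes, 80 were higher by more than 25% and 102 were lower by more than 20%, and 8 were higher and 11 lower by more than 1.5-fold. Only 11 of the 19 beyond 1.5-fold had an unadjusted p under 0.05. After adjustment 28 genes were called, against 0.199% of all genes tested. This count depended on the test, with 11 under Bonferroni adjustment, 0 when the statistics were read against a t distribution with 4 degrees of freedom, and 86 after they were divided by their scaled median absolute deviation. Of the 28, 5 were higher, where 0.0373% of all tested genes were called higher, and 23 were lower, where 0.162% were. Their folds ran from 0.633 to 1.41, with a median absolute log2 fold change of 0.34.

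The lean towards lower expression was present below the threshold as well. At an unadjusted p under 0.05 there were 668 genes, 5.34% of the 12509, where 4.49% of all genes tested passed. Of these, 200 were higher and 468 were lower. The same counts over all tested genes came to 1.37% higher and 3.13% lower. A further 44 genes had an adjusted p between 0.05 and 0.25, of which 9 were higher and 35 lower. Mice on chow, which share no animal with this comparison, showed the same sign for 347 of the 468 lower genes (74.1%) and for 126 of the 200 higher genes (63.0%). Over all 12509 genes 50.6% were lower on chow.

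**Figure D1:**
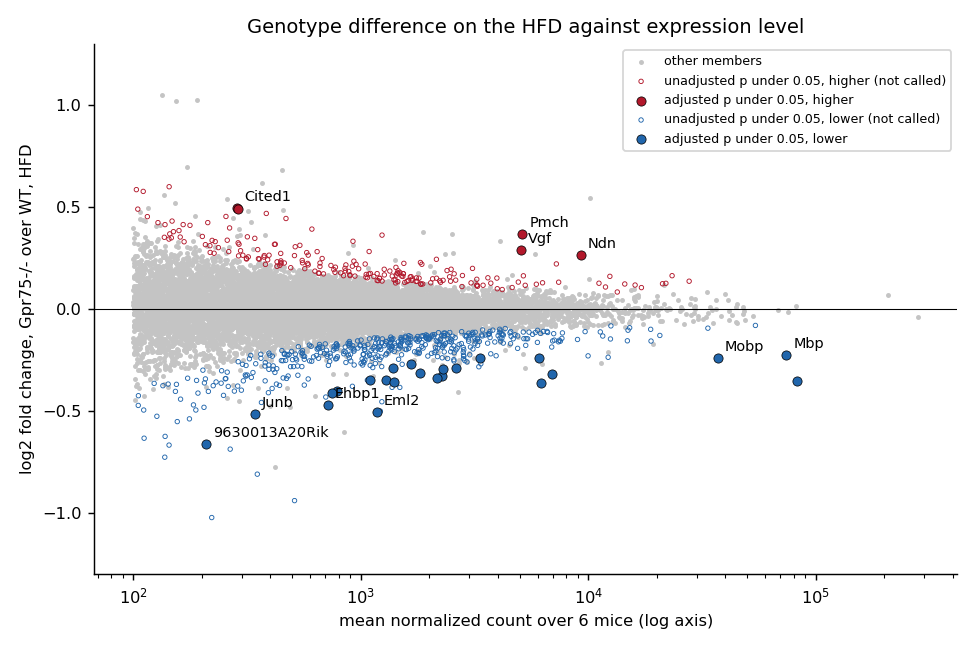
Log2 fold change of Gpr75-/- over WT on the HFD (y axis) against the mean normalized count over 6 mice (x axis, log scale), 1 point per gene. Filled points are the 28 genes with an adjusted p under 0.05, 5 higher in red and 23 lower in blue, and open points are genes with an unadjusted p under 0.05 that were not called. The grey points spread less as the count rises, and blue open points outnumber red ones at counts over 300.

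The genes called higher encode neuropeptides, regulators and a pseudogene transcript. Pmch, the precursor of melanin-concentrating hormone, had group means of 225 CPM in WT and 292 CPM in Gpr75-/- mice. Its log2 fold change was 0.37 (SE 0.07, adjusted p = 0.00075), a fold of 1.29 with a 95% interval of 1.17 to 1.42. Vgf, a granin-like precursor of secreted peptides, went from 235 to 279 CPM, a log2 fold change of 0.29 (SE 0.07, adjusted p = 0.017). Ndn, an imprinted gene for the growth regulator necdin, went from 440 to 532 CPM and had the smallest SE of the higher genes, with a log2 fold change of 0.26 (SE 0.05, adjusted p = 0.00034). On GRCm39, the build of the deposited coordinates, Pmch lies at chr10:87926934-87928237, Ndn at chr7:61996317-62000010 and, of the lower genes below, Tspan2 at chr3:102641845-102708829 and Eml2 at chr7:18910346-18940407.

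Cited1 and Pisd-ps1 were called at lower levels. The transcriptional co-regulator Cited1 had 12.1 CPM in WT and 17.1 CPM in Gpr75-/- mice, with a log2 fold change of 0.49 (SE 0.13, adjusted p = 0.046). Pisd-ps1 is a transcribed pseudogene of the gene for phosphatidylserine decarboxylase, and reads can be shared with its parent and other copies, so its value is uncertain. It had 12.4 and 17.6 CPM and a log2 fold change of 0.49 (SE 0.12, adjusted p = 0.034).

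Feeding and neuroendocrine peptides stood higher as a list. Of 36 genes listed, 23 passed the minimum of 100 and 8 more were in the table below it. Of the 23, 22 were higher in Gpr75-/- mice and 1, Cck, was lower, and the median log2 fold change was 0.18 beside 0.00 over all 12509 genes. Only Pmch and Vgf were called, where 0.0373% of all tested genes were called higher, and 8 of the 23 had an unadjusted p under 0.05, all higher, beside 1.60% higher at that p of all 12509 genes. Pomc, the precursor of the satiety peptide alpha-MSH, had 20.4 CPM in WT and 28.2 CPM in Gpr75-/- mice and missed the threshold, with a log2 fold change of 0.44 (SE 0.12, adjusted p = 0.062). Npy, whose product drives feeding, had 16.3 and 22.7 CPM and a log2 fold change of 0.47 (SE 0.13, adjusted p = 0.081). Peptides that act in opposite directions on food intake were thus on the same side.

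Other peptides were not called. Those of Trh, Tac1, Vip and Gal, at 0.22, 0.23, 0.33 and 0.18, had unadjusted p-values between 0.0083 and 0.028 and none passed adjustment. Hcrt, the orexin precursor, had a log2 fold change of 0.27 (SE 0.16) and Oxt, the oxytocin precursor, 0.28 (SE 0.15). Crh, Avp and Penk lay at 0.02, 0.11 and 0.06. On chow the median of the same 23 genes was -0.01 and 11 were higher. Medians of regional and blood markers were also not alike on the 2 diets, and these differences of medians were not tested. Hypothalamic transcription factors had a median of -0.15 on chow, with 4 of 18 higher, and 0.05 on the HFD, and thalamic genes -0.01 and -0.29. Red blood cell genes had medians of 0.66 on chow and -0.17 on the HFD. For the difference 4 of 4 had an unadjusted p under 0.05, beside 2.89% of all tested genes. The part of the regional and blood markers in the peptide values was not tested. The genotype effect was -0.25 on chow for Pomc and -0.09 for Npy. The HFD minus chow differences had unadjusted p-values of 0.0013 and 0.0025, and neither passed adjustment.

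The receptors of these peptides were less precise, since most were weakly expressed. Of 27 receptor and ligand genes with a value, 21 were higher, with a median log2 fold change of 0.09 and a median SE of 0.14, and 0 were called. Crhr1, a receptor for corticotropin-releasing hormone, was the only one with an unadjusted p under 0.05, 3.70% of the list. Over all 12509 genes 5.34% passed at that p, and 1.60% were higher. Crhr1 had 6.64 and 8.82 CPM and a log2 fold change of 0.38 (SE 0.17). Ghsr, the ghrelin receptor, had 0.35 (SE 0.21). Glp1r and Mc3r had 0.03 and 0.10.

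Granins and prohormone-processing genes formed a group of 19, of which 14 were higher, with a median of 0.07. Vgf was called, where 0.0373% of all tested genes were called higher. At an unadjusted p under 0.05, 6 of the 19 were higher and 1 lower, beside 1.60% and 3.74% of all 12509 genes. Scg2, which encodes the abundant granin secretogranin II, had group means of 1143 CPM in WT and 1273 CPM in Gpr75-/- mice, with a log2 fold change of 0.16 (SE 0.05, adjusted p = 0.41). Pcsk1n, which encodes an inhibitor of a convertase, had 0.13 (SE 0.05), and Pam, for the enzyme that amidates peptides, 0.14 (SE 0.06). Cpe, for the carboxypeptidase that trims peptides, went the other way at -0.08 (SE 0.04). The convertase genes Pcsk1 and Pcsk2 lay at 0.04 and -0.09.

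Promoter sequence was read for 4 genes on which these results turn: the called genes Pmch and Junb, and for each class a gene below the threshold, Scg2 and Btg2. The windows run from 250 bases before to 50 bases after the start of the gene in RefSeq on GRCm38.p6 and are printed 5′ to 3′ on the strand of the gene. Capitals mark a TATA box (TATAAA), a cAMP response element (TGACGTCA) or an AP-1 site (TGAGTCA), each searched on both strands.

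Pmch: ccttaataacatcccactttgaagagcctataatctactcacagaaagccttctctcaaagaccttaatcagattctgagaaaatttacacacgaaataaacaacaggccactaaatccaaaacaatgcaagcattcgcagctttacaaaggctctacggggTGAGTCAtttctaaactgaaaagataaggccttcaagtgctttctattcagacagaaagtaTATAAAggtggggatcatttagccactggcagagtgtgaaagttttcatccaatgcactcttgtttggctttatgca

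Scg2: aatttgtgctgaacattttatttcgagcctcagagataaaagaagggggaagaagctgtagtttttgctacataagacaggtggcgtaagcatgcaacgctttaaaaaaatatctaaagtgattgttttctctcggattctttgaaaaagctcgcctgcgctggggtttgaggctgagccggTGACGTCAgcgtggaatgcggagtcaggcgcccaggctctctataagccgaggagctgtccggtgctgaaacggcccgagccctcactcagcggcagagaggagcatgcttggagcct

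Junb: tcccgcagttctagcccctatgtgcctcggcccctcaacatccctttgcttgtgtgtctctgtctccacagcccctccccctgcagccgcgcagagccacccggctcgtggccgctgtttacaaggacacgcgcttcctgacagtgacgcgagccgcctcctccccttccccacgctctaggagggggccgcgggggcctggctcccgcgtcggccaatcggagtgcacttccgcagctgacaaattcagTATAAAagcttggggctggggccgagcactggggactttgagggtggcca

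Btg2: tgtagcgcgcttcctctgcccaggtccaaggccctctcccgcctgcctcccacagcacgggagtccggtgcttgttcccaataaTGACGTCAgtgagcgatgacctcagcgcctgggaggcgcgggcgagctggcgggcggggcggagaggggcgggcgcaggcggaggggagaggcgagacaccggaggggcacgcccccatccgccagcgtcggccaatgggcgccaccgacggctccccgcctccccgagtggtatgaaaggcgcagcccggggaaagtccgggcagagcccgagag

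The windows are chr10:88090822-88091121 on the plus strand for Pmch, and chr1:79439977-79440276, chr8:84978699-84978998 and chr1:134079106-134079405 on the minus strand for Scg2, Junb and Btg2. The TATA box of Pmch began at position -27 from the start and its AP-1 site at -88, and the TATAAA of Junb lay at the start itself, position 0. The cAMP response element of Scg2 began at -68 and that of Btg2 at -166. Of 32851 windows of this length, 13.6% held the TATA box, 1.79% the cAMP response element and 5.20% the AP-1 site. Among the 27 called genes named here 19 had a window, of which 3 held the TATA box (Cited1, Junb and Pmch), 2 the AP-1 site (Pmch and Tnfaip6) and 0 the cAMP response element. A match describes these letters and is not evidence of binding.

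Of the lists read, myelin and oligodendrocyte genes held the most genes called lower. Of 43 listed, all 43 passed the minimum of 100, and 42 of these were below WT in Gpr75-/- mice (median log2 fold change -0.20). Of these, 8 were called lower, where 0.162% of all tested genes were, and 28 had an unadjusted p under 0.05, all lower, beside 3.74% lower at that p of all 12509 genes. Tspan2, a membrane tetraspanin of oligodendrocytes, had 383 CPM in WT and 319 CPM in Gpr75-/- mice, a log2 fold change of -0.32 (SE 0.05, adjusted p = 1.3e-05). Cldn11, the tight-junction protein of myelin, had 128 and 102 CPM and a value of -0.33 (SE 0.06, adjusted p = 0.00022). Mbp, the most abundant gene of the list, had 4085 and 3608 CPM and -0.23 (SE 0.05, adjusted p = 0.0042). Mobp, Mog, Mal, Gjc3 and Enpp2 were called lower as well, with log2 fold changes from -0.36 to -0.24. Mobp, Gjc3 and Enpp2 were no longer called when the fold changes were centred on equal summed counts (adjusted p = 0.054, 0.070 and 0.058). Enpp2, for the enzyme autotaxin, is also abundant in the choroid plexus and is 1 of 4 choroid plexus genes with a value. The other 3, Kl, Clic6 and Prlr, had 0.15, 0.10 and 0.19 on the HFD, and on chow all 4 were higher, with a median of 0.75.

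Other genes of the lineage were not called. Cnp, Mag and Tubb4a had log2 fold changes of -0.23, -0.23 and -0.16 with adjusted p-values of 0.079, 0.098 and 0.15. The transcription factor genes Olig2, Myrf and Sox10 had -0.26 (SE 0.09), -0.17 (SE 0.07) and -0.15 (SE 0.08). Cd9, Ppp1r14a and Nkx6-2 lay at -0.02, -0.01 and 0.01. Precursor and newly formed cells gave 13 lower of 17, with a median of -0.14 and 0 called. At an unadjusted p under 0.05 there were 6, all lower, beside 3.74% lower at that p of all 12509 genes. The precursor receptor gene Pdgfra had -0.18 (SE 0.09) and Cspg4 -0.08 (SE 0.12). On chow the median of the 43 genes was -0.14, with 39 lower.

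**Figure D2:**
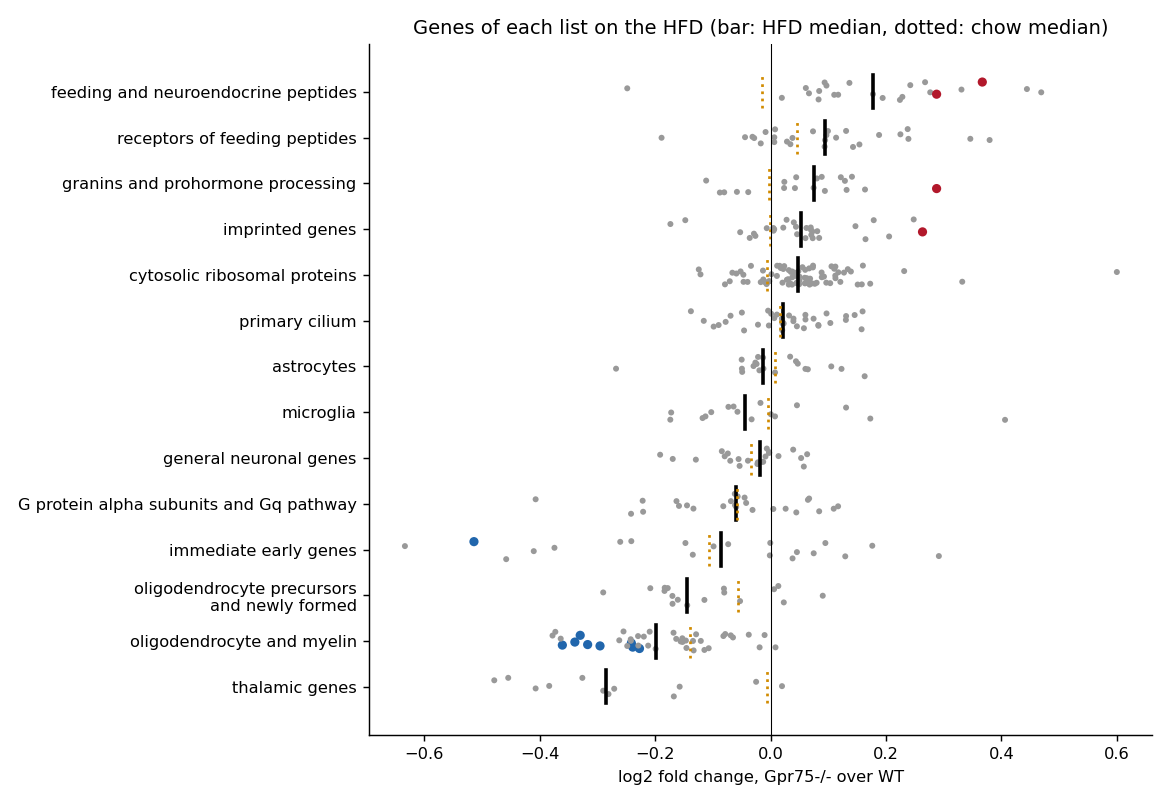
Log2 fold change of Gpr75-/- over WT on the HFD for the genes of 14 lists, 1 point per gene, with called genes as large red (higher) or blue (lower) points. The black bar is the list's HFD median and the dotted line its median on chow, and the oligodendrocyte and myelin genes have medians of -0.20 on the HFD and -0.14 on chow, whereas the peptide genes have medians of 0.18 on the HFD and -0.01 on chow.

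Other genes called lower were outside the myelin and oligodendrocyte list and are given by what they encode. That list was written by hand, and whether a gene outside it is expressed in oligodendrocytes was not read. Eml2, which encodes a microtubule-associated protein, had 69.1 CPM in WT and 49.7 CPM in Gpr75-/- mice and a log2 fold change of -0.51 (SE 0.10, adjusted p = 0.00034). Ehbp1, an adaptor of endocytic traffic, had 42.5 and 30.7 CPM and -0.47 (SE 0.10, adjusted p = 0.0017). Plekha1, a phosphoinositide-binding adaptor, had 183 and 156 CPM and -0.24 (SE 0.05, adjusted p = 0.0033). Adamts4, a protease that cuts proteoglycans, and Tnfaip6, a hyaluronan-binding protein, fell by 0.40 and 0.41 on the log2 scale. Pex5l, Slc12a2, Itgav, Arfgef1, Edem3, Ankib1 and Gsn were called lower with log2 fold changes from -0.36 to -0.27, of which Arfgef1, Edem3, Ankib1 and Gsn were not called when centred on equal summed counts (adjusted p from 0.054 to 0.070). Slc12a2 encodes a cotransporter of sodium, potassium and chloride, Itgav an integrin subunit, and Gsn the actin-severing protein gelsolin.

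Among immediate early genes, which are switched on within minutes of neuronal activity, 20 of 27 listed passed the minimum, and 13 of these were lower, with a median of -0.09. Junb was the only one called, where 0.162% of all tested genes were called lower, at 20.4 CPM in WT and 14.5 CPM in Gpr75-/- mice with a log2 fold change of -0.51 (SE 0.13, adjusted p = 0.046). Centred on equal summed counts, Junb was not called (adjusted p = 0.058). Btg2, Arc, Nr4a1 and Egr3 had -0.41, -0.46, -0.37 and -0.63, with adjusted p-values of 0.079, 0.10, 0.10 and 0.32. Fos, Jun and Fosb lay at -0.07, 0.04 and 0.13. Gadd45g was higher, at 0.29 (SE 0.12). The list was thus divided, with 6 lower and 1 higher at an unadjusted p under 0.05, beside 3.74% and 1.60% of all 12509 genes.

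Gnaq had 235 and 245 CPM and a log2 fold change of 0.04 (SE 0.05), an interval of 0.965 to 1.10 as a fold. Adcy3, the adenylyl cyclase of neuronal primary cilia, had 0.13 (SE 0.07), and Tulp3, which carries receptors into cilia, 0.10 (SE 0.12). Of 25 genes for G protein alpha subunits and the Gq pathway, 17 were lower, with a median of -0.06 and 0 called. Gnal, Prkca, Plcb4 and Plcb1 were lower at an unadjusted p under 0.05, with values from -0.24 to -0.13. Of 36 primary cilium genes 25 were higher with a median of 0.02, 0 had an unadjusted p under 0.05, and the 95% interval of all 36 lay within 1.5-fold. Of 25 TGF-beta pathway genes 16 were lower, with a median of -0.04, 1 higher and 5 lower at an unadjusted p under 0.05, and Junb called. Neurotrophin and receptor tyrosine kinase genes had 17 lower of 32, a median of -0.01, 4 lower at that p and 0 called. Over all 12509 genes 1.60% were higher and 3.74% lower at that p, and 0.162% of all tested genes were called lower.

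Markers of other cells and of neighbouring regions were read in the same way. Astrocyte genes had a median of -0.01 and microglial genes -0.05, with 0 called in either, and general neuronal genes had -0.02, with 19 of 24 lower and 0 called. Of the neuronal genes Syt1, Nefh and Nefm had -0.13, -0.19 and -0.17 at an unadjusted p under 0.05. Aldoc and Agt, both astrocyte genes, had 0.11 and 0.16 at an unadjusted p under 0.05. Genes enriched in the thalamus, which lies above the hypothalamus, had a median of -0.29 with 11 of 12 lower, while their SEs were wide, with a median of 0.21. Of the 12, 2 were lower and 0 higher at an unadjusted p under 0.05, beside 3.74% and 1.60% of all 12509 genes. Not among these 2, Tcf7l2, Prkcd and Slc17a7 had -0.29 (SE 0.20), -0.41 (SE 0.29) and -0.48 (SE 0.35). Of 4 red blood cell genes 4 were below WT, at -0.23 to -0.11 with SEs of 0.22 to 0.26. The part of tissue composition in the myelin and peptide values was not tested. Hypothalamic transcription factors were detected, with Nkx2-1 at 28.2 CPM in both groups. Otp and Sim1 were at 0.41 and 0.37 and Sp9 and Lhx8 at -0.36 and -0.34, all with an unadjusted p under 0.05 and none called. Of 18 such genes 3 were higher and 2 lower at that p, beside 1.60% and 3.74% of all 12509 genes. Of 9 anterior pituitary genes listed, 0 reached the minimum of 100. Pomc, also a pituitary marker, was not in that list and was read among the peptides.

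Imprinted genes and housekeeping families had medians close to 0. Of 30 imprinted genes 23 were higher, with a median of 0.05, Ndn was the 1 called, and 4 were higher and 1 lower at an unadjusted p under 0.05. The shares over all genes were 0.0373% called higher, and 1.60% higher and 3.74% lower at that p. Zim1, Asb4 and Dlk1 had 0.25, 0.21 and 0.16. Cytosolic ribosomal protein genes gave 64 higher of 82 with a median of 0.05 and 0 called. Mitochondrial ribosomal proteins, respiratory chain subunits and proteasome subunits had medians of 0.03, 0.01 and 0.02. Fatty acid oxidation genes had a median of 0.01 and cholesterol synthesis genes -0.01, and the 95% interval of every gene in these 2 lists lay within 1.5-fold. Potassium channel genes had 36 lower of 61 with a median of -0.03, and 1 was higher and 8 were lower at an unadjusted p under 0.05, 14.8% of the list beside 5.34% of all genes. None was called, and Kcng4 was at -0.73 (SE 0.19, adjusted p = 0.079).

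**Figure D3:**
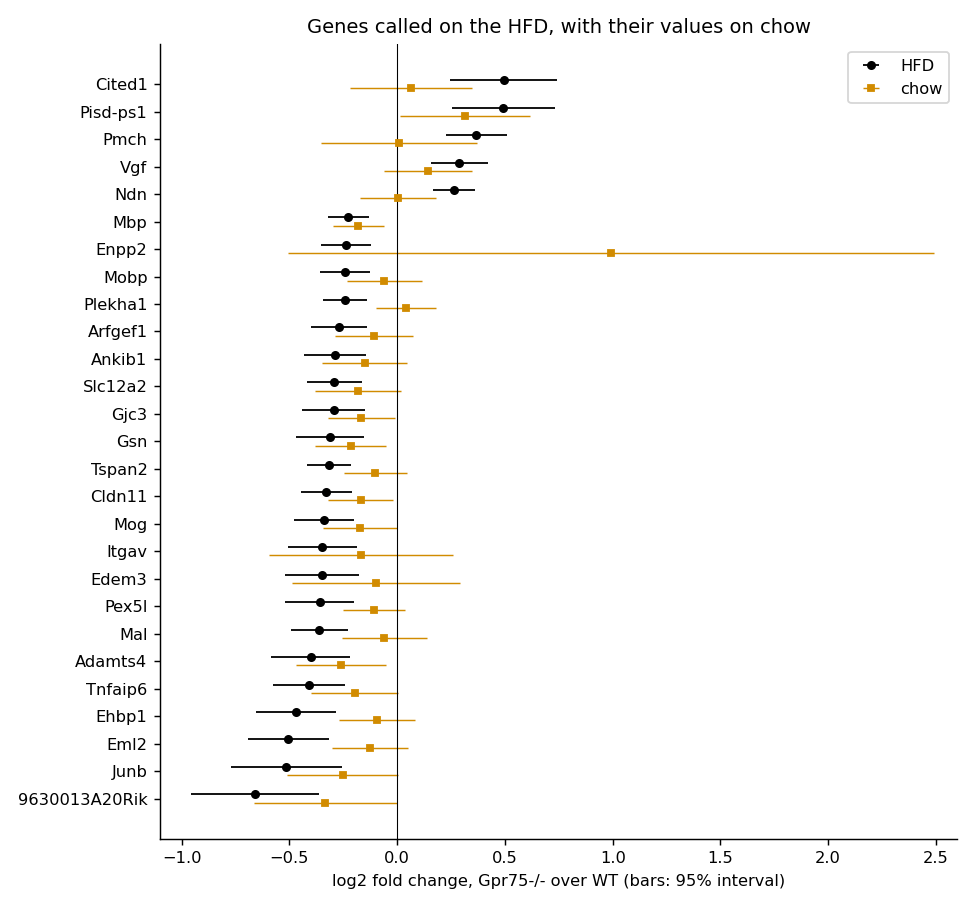
Log2 fold change of Gpr75-/- over WT for 27 genes called on the HFD (black circles), with the same genes on chow (orange squares). Bars are 95% intervals from the SE, and the chow value of Enpp2 has by far the widest bar, with an SE of 0.76.

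The called genes were set beside chow. Of the 28, 26 had the same sign on chow, the 2 others being Plekha1 and Enpp2. The difference of the genotype effect between diets was tested over 15893 genes and called 0% of them, with a smallest adjusted p of 0.55 among the genes described here. At an unadjusted p under 0.05 the difference passed for 398 of the 12509 genes, where 2.89% of all tested genes passed, and for 8 of the 28. The 28 were picked by their HFD value, which is part of the difference, so their count cannot be set against that share. Pmch had 0.01 (SE 0.18) on chow and 0.37 on the HFD, with an unadjusted p of 0.071 for the difference. Ndn had 0.00 on chow (unadjusted p for the difference 0.012), and Eml2 and Plekha1 had -0.12 and 0.04 (0.0037 and 0.0012). A smaller value on chow is thus not a shown difference between diets.

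By gene class, protein-coding genes set the overall picture. There were 11688 of them, with a median of 0.00 and 50.9% higher. Of these, 26 were called, 4 higher and 22 lower, where 0.0373% and 0.162% of all tested genes were. At an unadjusted p under 0.05, 186 were higher (1.59%) and 458 lower (3.92%), beside 1.60% and 3.74% of all 12509 genes. Long noncoding RNAs numbered 270, with a median of -0.00 and 49.3% higher. Of these only 9630013A20Rik was called, where 0.162% of all tested genes were called lower. It had 13.2 CPM in WT and 8.32 CPM in Gpr75-/- mice, with a log2 fold change of -0.66 (SE 0.15, adjusted p = 0.012), the largest of the called genes. Neat1, the RNA that builds nuclear paraspeckles, had 102 and 119 CPM and 0.24 (SE 0.07, adjusted p = 0.13). Unconfirmed transcripts of the TEC class numbered 128, with 53.1% higher and 0 called.

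Pseudogenes were read by class. Of 330 processed pseudogenes 211 were higher (63.9%), with a median of 0.04. An unadjusted p under 0.05 was found for 3 of them (0.909%), beside 5.34% of all 12509 genes. Of 33 transcribed processed pseudogenes 27 were higher (81.8%), with a median of 0.07 and 0 at an unadjusted p under 0.05. Among processed pseudogenes the share was 67.4% at counts of 100 to 300, 60.0% at 300 to 1000 and 39.1% at 1000 to 3000. At 3000 to 10000 counts there were only 2 such genes, and 2 were higher. Unprocessed pseudogenes had 9 higher of 18 and transcribed unprocessed ones 9 of 17, with medians of -0.00 and 0.00. On chow 72.7% of the processed and 51.5% of the transcribed processed pseudogenes were higher. Their reads can be shared with the parent genes, so that their values are not independent of these. Of 8 loci annotated as miRNA, 7 were higher with a median of 0.18 and a median SE of 0.23.

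By level, the share of higher genes fell from 55.7% at counts of 100 to 300, through 52.4% at 300 to 1000 and 48.4% at 1000 to 3000, to 44.9% at 3000 to 10000, and was 45.2% at 10000 and over. The medians ran only from 0.02 to -0.01. At an unadjusted p under 0.05 there were 37 higher and 42 lower genes in the lowest class (1.19% and 1.35%). The next had 64 and 127 (1.36% and 2.69%), and that of 1000 to 3000 had 65 and 202 (1.89% and 5.87%). At 3000 to 10000 there were 23 and 81 (2.22% and 7.82%), and at the top 11 and 16 (5.24% and 7.62%). The shares of all 12509 genes were 1.60% and 3.74%. At the top, Lars2 and the mitochondrial ribosomal RNA mt-Rnr2 had mean counts of 282156 and 207354 and log2 fold changes of -0.04 (SE 0.05) and 0.07 (SE 0.05). Of the most abundant genes, Mbp at a mean of 73960 was called. Lower genes thus outnumbered higher ones most between 1000 and 10000 counts. When the fold changes were centred on equal summed counts, which moved every value by 0.01, the share of higher genes was above 50% at every level.

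Genes that span more of the genome were more often lower. Genes under 5 kb, measured from the deposited start to the deposited end, had a median of 0.03 with 63.4% higher. Those of 5 to 20 kb had 0.01 with 57.9% higher, those of 20 to 100 kb -0.00 with 48.1%, and those of 100 kb and over -0.03 with 37.7%. At an unadjusted p under 0.05 there were 40 higher and 20 lower genes under 5 kb (2.43% and 1.22%). At 100 kb and over there were 20 and 159 (0.992% and 7.88%), beside 1.60% and 3.74% of all 12509 genes. The median span of the lower genes at that p was 64.0 kb, that of the higher genes 14.0 kb, and that of all 12509 genes 25.5 kb.

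For protein-coding genes the share fell at every step of span within each level below 10000 counts. At 1000 to 3000 counts 64.7% of genes under 5 kb and 34.1% of those of 100 kb and over were higher, and at 3000 to 10000 counts 67.9% and 27.8%. At 100 to 300 counts the shares were 59.9% and 47.2%. At 10000 and over the order was not kept, with 47.1%, 48.1%, 43.9% and 36.7% from the shortest to the longest class. On chow 46.8% of protein-coding genes under 5 kb and 36.4% of those of 100 kb and over were higher, while the classes between them had 52.8% and 52.5%. The difference of these shares between diets was not tested.

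**Figure D4:**
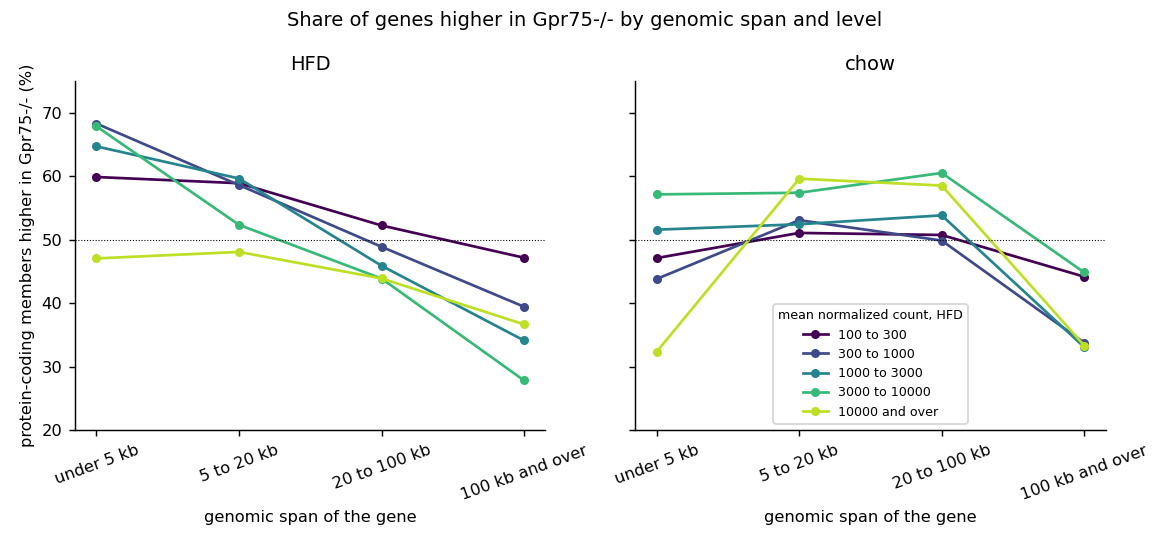
Share of protein-coding genes higher in Gpr75-/- mice (y axis, %) by genomic span (x axis) within 5 classes of mean normalized count, on the HFD (left) and for the same genes on chow (right). On the HFD each line but the one for counts of 10000 and over goes down at every step, whereas on chow each line but that one is lowest at 100 kb and over without going down at every step.

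The precision of the comparison followed the level. The median SE of the log2 fold change was 0.16 at counts of 100 to 300 and 0.04 at 10000 and over, with 0.09 over all genes. The part that counting alone would give was 0.09 in the lowest class and 0.0094 in the highest, and the median over genes of the ratio of the SE to its counting part was 1.78 and 4.97. Variation between mice that remained after counting error had a median coefficient of 11.3% in the lowest class and 3.65% in the highest. For 96.7% of the genes the 95% interval lay within 1.5-fold in either direction, and for 70.4% it lay between a 20% fall and a 25% rise. In the lowest class 89.7% and 16.4% met these limits, and at 1000 to 3000 counts 99.2% and 94.9%.

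**Figure D5:**
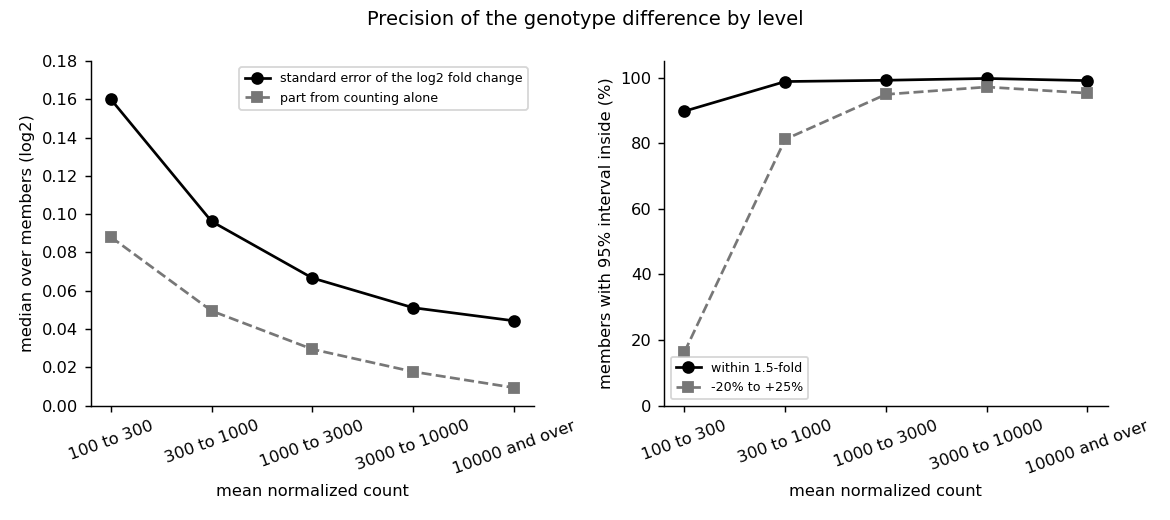
Left, median SE of the log2 fold change (circles) and the part of it that counting alone gives (squares) by mean normalized count. Right, share of genes whose 95% interval lies within 1.5-fold (circles) or between a 20% fall and a 25% rise (squares). The narrower limit was met by 16.4% of genes at counts of 100 to 300 and by 94.9% at 1000 to 3000.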

How the data were processed

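RNA-Seq of the hypothalamus covered 12 mice in 4 groups of 3, of which the 6 on the HFD are described here. Libraries were made from mRNA with a SMART-Seq kit. The submitters' processing notes list STAR, featureCounts, StringTie, DESeq2 and the genome build GRCm39, without versions or roles, and annotation is not given in the sources used here. The authors ran DESeq2 on raw counts and deposited 1 table per diet.

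The deposited signal per gene is the mean over 6 mice of counts divided by size factors. The deposited log2 fold change and its SE come from that fit. They are the authors' own comparison, used because the tables hold no other estimate of spread. The adjusted p-value column that the authors deposited was used only for which rows are blank, and its values and those of the remaining test columns were not used. The group means that the authors deposited on a log2 scale were read as log2 of 1 plus log2 CPM. So read, they sum to 993875 CPM in WT and 994240 CPM in Gpr75-/- mice, and for 99.8% of the genes their average lay within 0.1 of the log2 level given by the mean count.

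Wald statistics, 2-sided normal p-values and Benjamini-Hochberg adjustment were recomputed over 16089 genes. Each p sets the log2 fold change of a gene against its SE from the authors' fit over these mice. Slc13a4 was among the 12509 genes but not tested, because the authors' fit marked a count outlier. Depth was 19420111 normalized counts for an average mouse. For the test between diets, the chow log2 value was subtracted from the HFD value and divided by the combined SE, and levels were not compared between diets. The counting part of the SE was computed from the mean count of 3 mice per group.

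The genes, classes and lists were chosen with earlier results of these data known, so the lists were given counts and medians and no test. Genes named by rule are those called, up to 3 with the largest Wald statistic in each direction per class, level and list, the 10 with the highest mean, Gpr75, Gnaq, Adcy3 and Tulp3, and those next to the minimum of 100. Other genes named within lists were chosen after their values were seen. Results of 2 genes are not reported here. Both stay in the counts, 1 of them among the 28. Promoters were matched by symbol, and coordinates of GRCm38.p6 were not mixed with those of the tables. The steps were tested on simulated data. Python 3.11.15, numpy 2.4.6, pandas 2.3.3, scipy 1.17.1 and matplotlib 3.10.9 were used.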

Additional observations from a re-analysis of the deposited data

How the results depend on the processing

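The 28 calls, 5 higher and 23 lower, were the same 28 without the filter on low means, with adjustment over means of at least 100 alone, with a minimum of 50, and after centring on the median of the genes. Protein-coding genes alone gave 26. Bonferroni adjustment left 11, with 2 higher and 9 lower. A t distribution with 4 degrees of freedom in place of the normal left 0, with 0 higher and 0 lower. Dividing the statistics by their scaled median absolute deviation of 0.866 gave 86, with 16 higher and 70 lower. Centring on equal summed counts left 20, with 5 higher and 15 lower, and Mobp, Enpp2, Gjc3, Gsn, Arfgef1, Ankib1, Edem3 and Junb lost their call. A minimum of 500 kept 24, with 3 higher and 21 lower. The causes were not tested. The count of 0 for the difference between diets became 1 (Tmem181b-ps, named after its value was seen) after scaling by the median absolute deviation. The share of intervals within 1.5-fold, 96.7%, was 89.5% with the t distribution and 99.2% at a minimum of 500. Of 57 lists with 5 or more genes 31 had a median above 0, 30 after centring on the median of the genes, 37 after centring on equal summed counts, 33 and 23 with minimums of 50 and 500, and 19 from the group-mean log2 CPM, an alternative chosen after seeing the data whose rounding puts many genes at exactly 0. No list whose median changed sign had an absolute median above 0.05, the value of the hypothalamic transcription factors. No paired analysis was possible because the tables hold no values of single mice, and leaving out each mouse could not be run for the same reason. Depth limited the lowest class most, where the median SE was 0.16.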

Other observations

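The 20 genes that varied most between mice of the same genotype after counting error had SEs from 0.55 to 1.20, and 18 of them had a positive log2 fold change. With SEs of this size their fold changes are poorly determined, and 1 of them, Slc13a4, was not tested. They include genes of fibroblasts and the meninges, such as Fmod, which encodes the collagen-binding fibromodulin, and Ogn, Mgp and Ptgds, the last for prostaglandin D synthase. Fmod had a fitted fold of 2.03, whereas its group means of 4.47 and 5.88 CPM give a fold of 1.32. For Ogn the fitted fold was 2.03 and that of the group means 1.31, and for Ptgds they were 1.46 and 1.21. Only 25 of the 12509 genes had the fitted value and the difference of the group means more than 0.1 apart on the log2 scale. These genes were singled out after their values were seen.

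Several genes had a large fold change and a wide SE. Xlr3b had 14.5 CPM in WT and 7.42 CPM in Gpr75-/- mice, with a log2 fold change of -1.02 (SE 0.35, adjusted p = 0.44). Slc22a15 had -0.94 (SE 0.42) and Cntfr, the receptor subunit for ciliary neurotrophic factor, -0.81 (SE 0.36), neither of which was called. These were also named after their values were seen.

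Glucocorticoid-induced genes had a median of 0.07 on the HFD and 0.37 on chow over 19 genes. Fkbp5, a co-chaperone of the glucocorticoid receptor, had 0.33 on both diets (SE 0.11 on the HFD, adjusted p = 0.28). Striatal genes had a median of -0.06 on the HFD and -0.37 on chow over 12 genes. The differences of these medians between diets were not tested.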
